A study of Homo sapiens with 13 samples.

Results

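The genes followed here are 41 genes of G2 and mitosis, taken by symbol from the count tables of a study of human neurons made from stem cells, which list 60500 genes in the doxycycline set and 60554 genes in the FGF2 set. All 41 were found in both tables. The cells derive from H9, an established human embryonic stem cell line, and carry a stable NEUROG2 gene, which encodes a proneural transcription factor and is switched on by doxycycline. Each library is RNA from 1 well of a plate, and the titles name the cells hES-N1 in the doxycycline set and hES-N2G1 (replicate 1) and hES-N2G2 (replicate 2) in the FGF2 set, while the source names say hES-N1 throughout. No field explains these names or says whether the replicates are separate cultures, clones or lines, so p-values measure the spread between these libraries, which may be technical. The series asks what the growth factor FGF2 does to gene expression in such neurons.

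The doxycycline set has 5 libraries, 1 per group: cells given doxycycline at 1 µg/ml for 5 or for 11 days (called induced), cells grown for 5 or 11 days without it (uninduced), and cells at day 0. The FGF2 set has 4 groups of 2 libraries, all given doxycycline for their first 6 days. Late FGF2 cultures received FGF2 at 20 µg/ml for 6 days after doxycycline had been withdrawn and were harvested on day 12, beside a day-12 control without FGF2. Early FGF2 cultures received it together with doxycycline and were harvested on day 6, beside a day-6 control. After day 0 all cultures had 2 days in the stem cell medium E8, followed by the neural medium 3N up to harvest. The day-12 control descriptions also give 6 days of growth, but their titles and the periods listed give 12. Late FGF2 is labelled as starting on day 6 in one field and on day 7 in another. Each set had its own sequencing run and its own scaling, and no value was tested across them.

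Cells that divide make the mitosis genes in waves. Cyclins A2, B1 and B2 rise through G2 and activate the kinase CDK1, which drives entry into mitosis together with the Polo-like and Aurora kinases. The spindle then attaches chromosomes at their kinetochores, the spindle assembly checkpoint holds cells until attachment is complete, and the anaphase-promoting complex (APC/C) then marks securin and cyclin B for destruction so that the chromatids part and the cell divides. Neurons are post-mitotic and leave this cycle for good. In cells that leave it, the DREAM complex binds promoters of mitosis genes through a short element called the CHR, often found beside CCAAT boxes bound by the factor NF-Y, while B-MYB and FOXM1 act on many of the same genes in cycling cells.

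These elements can be read in the promoters. RefSeq promoters on GRCh38.p14, each running from 250 bases before the gene's start to 50 bases after it, were found for 34 of the 41 genes. AURKA, FOXM1, TTK, BIRC5, TPX2, UBE2C and RACGAP1 were the others. The CHR letters TTTGAA or TTTAAA occurred on either strand in 28 of the 34 promoters (82.4%), against 24.3% of all 27305 promoters of the table. The form TTTGAA by itself occurred in 24 of the 34 (70.6%), against 15.4% of all promoters. CCAAT on either strand occurred in 22 of the 34 (64.7%), against 35.7% of all promoters. At least 2 CCAAT boxes occurred in 14 of the 34 (41.2%), against 11.3%, and both kinds of element occurred in 19 of the 34 (55.9%), against 9.49%. In 14 promoters the CHR letters began within the last 31 bases before the start. MKI67 was the only one of the 34 in which a CHR match overlapped a CCAAT match. Such matches describe letters in a window, and binding was not measured.

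The promoters of cyclins B1 and B2, of the APC/C activator CDC20 and of the kinase PLK1 show the arrangement, and those of SMC2 and CDC25B are shown because these genes differed least between induced and uninduced cells on day 11. They lie at chr5:69166900-69167199 (CCNB1), chr15:59104896-59105195 (CCNB2), chr1:43358731-43359030 (CDC20), chr16:23678639-23678938 (PLK1), chr9:104094059-104094358 (SMC2) and chr20:3786701-3787000 (CDC25B) of GRCh38.p14, all on the plus strand. Each is written 5′ to 3′, with capitals for matches to the CHR letters and to CCAAT, on either strand.
CCNB1: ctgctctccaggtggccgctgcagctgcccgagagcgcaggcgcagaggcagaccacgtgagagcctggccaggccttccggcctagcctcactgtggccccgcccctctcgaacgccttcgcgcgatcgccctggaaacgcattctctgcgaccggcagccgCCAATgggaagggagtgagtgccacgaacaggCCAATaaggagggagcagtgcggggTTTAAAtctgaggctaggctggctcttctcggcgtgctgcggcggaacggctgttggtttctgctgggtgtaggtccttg
CCNB2: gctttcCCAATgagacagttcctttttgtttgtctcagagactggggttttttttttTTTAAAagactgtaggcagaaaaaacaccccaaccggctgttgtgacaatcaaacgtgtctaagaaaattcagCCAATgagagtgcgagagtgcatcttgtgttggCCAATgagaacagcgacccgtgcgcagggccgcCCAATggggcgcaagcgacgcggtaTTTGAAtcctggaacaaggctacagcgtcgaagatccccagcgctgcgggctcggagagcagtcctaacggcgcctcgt
CDC20: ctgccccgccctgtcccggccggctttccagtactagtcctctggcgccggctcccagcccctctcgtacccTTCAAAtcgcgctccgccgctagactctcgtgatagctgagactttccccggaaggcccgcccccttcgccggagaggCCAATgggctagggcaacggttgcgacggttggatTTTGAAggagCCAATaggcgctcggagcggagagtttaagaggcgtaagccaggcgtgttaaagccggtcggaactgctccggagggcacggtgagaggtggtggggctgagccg
PLK1: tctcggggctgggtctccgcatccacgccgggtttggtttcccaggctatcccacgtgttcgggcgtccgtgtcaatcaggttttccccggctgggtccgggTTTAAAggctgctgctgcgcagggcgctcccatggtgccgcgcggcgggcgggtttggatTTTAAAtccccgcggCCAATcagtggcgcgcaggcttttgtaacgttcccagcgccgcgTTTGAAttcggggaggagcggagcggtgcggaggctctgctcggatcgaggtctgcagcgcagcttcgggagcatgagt
SMC2: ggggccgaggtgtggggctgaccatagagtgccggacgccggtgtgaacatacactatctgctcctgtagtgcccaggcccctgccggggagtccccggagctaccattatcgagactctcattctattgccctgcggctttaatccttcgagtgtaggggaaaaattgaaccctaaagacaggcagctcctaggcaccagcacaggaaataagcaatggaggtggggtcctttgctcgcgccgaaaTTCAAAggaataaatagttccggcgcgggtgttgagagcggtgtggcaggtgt
CDC25B: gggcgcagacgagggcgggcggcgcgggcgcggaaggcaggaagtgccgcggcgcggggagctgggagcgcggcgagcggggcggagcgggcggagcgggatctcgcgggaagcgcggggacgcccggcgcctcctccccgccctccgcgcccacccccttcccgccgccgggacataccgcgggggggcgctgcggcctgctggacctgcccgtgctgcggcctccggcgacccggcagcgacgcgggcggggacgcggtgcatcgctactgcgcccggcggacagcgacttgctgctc
In CCNB1 a TTTAAA began 30 bases before the start, behind CCAAT boxes that began at 87 and 55 bases. In CCNB2 a TTTGAA began at 29 bases, behind CCAAT boxes at 120, 87 and 54 bases. PLK1 had a TTTGAA at 29 bases and a CCAAT box at 73 bases. In CDC20 a TTTGAA at 65 bases stood between CCAAT boxes at 100 and 55 bases. SMC2 held a reverse TTTGAA that began 3 bases before the start and no CCAAT, and CDC25B held none of these letters. CHR letters stood in 13 of the 17 genes with the larger falls between the day-6 and day-12 controls and in 15 of the 17 with the smaller. At least 2 CCAAT boxes stood in 10 and in 4 of them. MYBL2 and CDC25C held neither kind of letters, and their log2 changes there were -6.68 and -4.75. These counts were not tested.

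Before the comparisons, the libraries themselves were checked. Libraries of the doxycycline set held 28443657 to 47159475 counted reads, and those of the FGF2 set 22802501 to 30014661. NEUROG2 was at 1564 and 1018 CPM (counts per 1000000 reads after TMM scaling) in induced cells on days 5 and 11, against 0.456 to 6.26 CPM in the 3 libraries without doxycycline. It was at 7538 to 7824 CPM in the 4 day-6 libraries and at 49.2 to 54.6 CPM in the 4 day-12 libraries, after withdrawal. The stem cell markers POU5F1 and NANOG were at 1000.4 and 37.3 CPM on day 0, and the neuronal tubulin-binding gene STMN2 was at 4019 and 3666 CPM in induced cells on days 5 and 11. In uninduced cells on day 11 POU5F1 was at 38.9 CPM and NANOG at 0.181 CPM, against 654 and 35.5 CPM in uninduced cells on day 5. The 2 day-6 FGF2 libraries stood apart from each other: a chi-square comparison of their counts gave 19.0 per degree of freedom over all genes, where the other 3 groups gave 2.87 to 3.26. Over the 41 members it gave 32.0 with early FGF2 and 13.5 in the day-6 controls, whose libraries thus also differed in these genes. It gave 1.79 over 34 members in the day-12 controls and 2.47 over 38 with late FGF2. The difference between the day-6 FGF2 libraries went with gene length. Over 12143 genes at 5 CPM or more, the log2 ratio of replicate 2 to replicate 1, after adding 1 CPM, had a median of 0.19 below the lower quartile of exon length (3.13 kb) and of -0.19 above the upper quartile (7.68 kb). Results that rest on these libraries are given with and without each of them.

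In dividing stem cells every one of the 41 genes was abundant. The lowest was CENPA, the centromeric histone, at 22.7 CPM on day 0, and the highest was TOP2A, the topoisomerase that untangles chromosomes, at 560.4 CPM, with a median over the genes of 117 CPM. Per kilobase of exon, which allows genes to be compared, the highest in each role on day 0 were as follows. Cyclin B1 led the cyclins and kinases at 91.6 CPM per kb and TOP2A led the chromosome genes at 87.1. UBE2C, the ubiquitin-conjugating enzyme of the APC/C, stood at 86.7 CPM per kb. The spindle factor TPX2, which activates Aurora A, was at 59.6 and B-MYB (MYBL2) at 58.6 CPM per kb. Among the rest, the checkpoint gene BUB1B led its role at 47.3, the chromosomal passenger kinase AURKB at 40.0 and the cytokinesis scaffold ANLN at 28.1 CPM per kb. At the other end, the phosphatase CDC25B was at 7.98 CPM per kb and ESPL1, the protease separase, at 6.47.

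Uninduced cells kept these levels through the change of medium. The summed CPM of the 41 genes was 5649 on day 0, 5177 on day 5 and 6012 on day 11. No member differed by 4-fold between day 5 and day 0, a difference seen in 0.839% (higher) and 0.21% (lower) of the 11916 genes at 10 CPM or more, and none did between day 11 and day 5, against 2.34% (higher) and 4.64% (lower) of 12193 genes. The median log2 ratio of day 5 over day 0 was -0.27 for the members and -0.12 for all genes, and that of day 11 over day 5 was 0.21 for the members and 0.05 for all genes. The summed pluripotency markers were at 6067 CPM on day 0, 7673 CPM on day 5 and 2196 CPM on day 11 in the same uninduced cells. Scaling by library totals shifted both medians together, to 0.45 for the members and 0.31 for all genes in the second comparison. The spindle gene NUSAP1, at 274 CPM on day 11 and 125 CPM on day 5, and the condensin subunit NCAPG, at 123 and 59.0 CPM, were the only members more than 2-fold apart between those days. Exon bases shared with other genes make both less certain: 62.2% of those of NUSAP1 lie under AC087721.2 on the same strand, and 33.1% of those of NCAPG lie under LCORL on the opposite strand, and the library kit is not stated to mark strand.

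**Figure D1:**
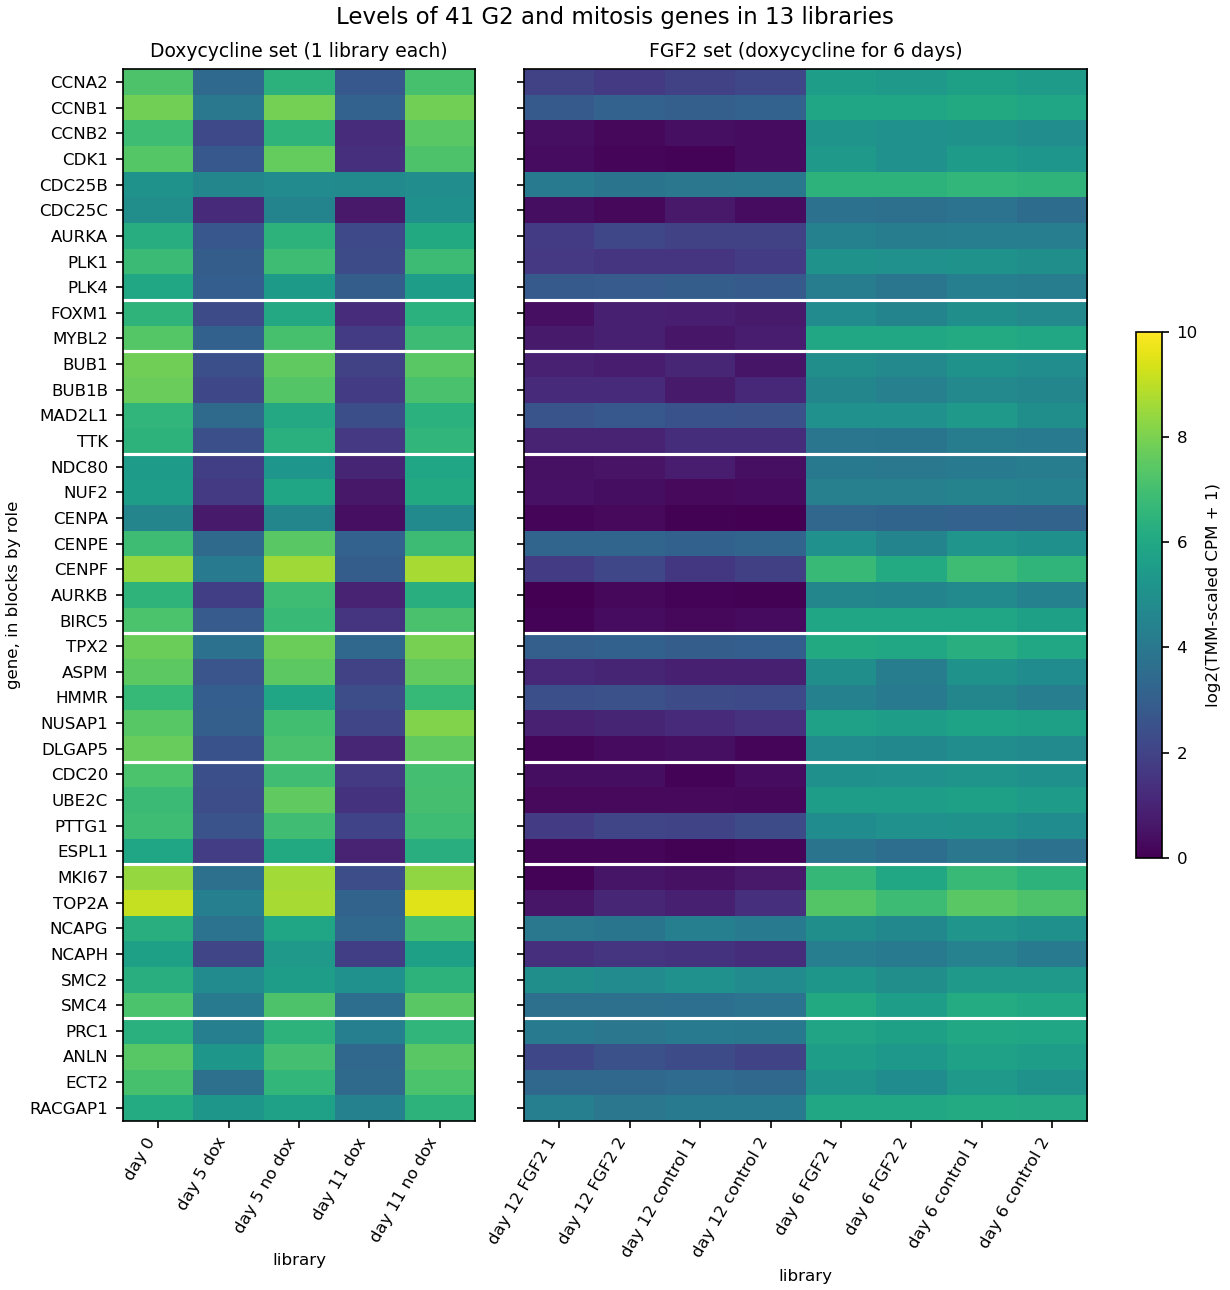
Levels of the 41 genes (rows, in blocks by role, with white lines between blocks) in each of the 13 libraries (columns), as log2 of TMM-scaled CPM plus 1; the doxycycline set is on the left and the FGF2 set on the right, scaled separately. Induced cells on days 5 and 11 and all 4 day-12 libraries are dark in most rows, while SMC2 stays between 27.2 and 86.3 CPM in all of them and in uninduced cells from day 5.

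With doxycycline the mitosis program was lower as a block on day 5. The summed CPM of the 41 genes was 403 in induced cells, against 5177 in uninduced cells. All 41 were lower, and in all 41 the 95% exact binomial counting interval of the ratio lay below 1. At the 4-fold bound, 37 of 41 were lower and none was higher, where 11.5% of the 12895 genes at 10 CPM or more were lower and 12.6% higher. The median log2 ratio, taken after adding 1 CPM, was -3.93 over the members and 0.23 over all genes. On day 11 the summed CPM was 247 in induced cells, against 6012 in uninduced cells. There 39 of 41 genes were at least 4-fold lower, against 9.85% of 12655 genes, and the median log2 ratio was -4.84 over the members and 0.16 over all genes. Against day 0, which had 1 library as well, 38 of 41 genes were at least 4-fold lower in induced cells on day 5, where 10.4% of 12852 genes were lower and 12% higher. The groups have 1 library each, so these differences have no replicate check and no test. The intervals cover counting error only, and the share of all genes with such an interval was not computed. RNA from whole wells also cannot tell fewer dividing cells from less mitotic RNA per cell.

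Markers of cell types moved alongside. The summed level of 10 pluripotency markers was 659 CPM in induced cells on day 5, against 7673 CPM in uninduced cells, and 247 against 2196 CPM on day 11. At the 4-fold bound 9 of the 10 were lower on day 5 and 7 on day 11. The 12 neuron markers summed to 18303 CPM against 97.2 CPM on day 5 and to 20669 CPM against 372 CPM on day 11, with 11 of 12 at least 4-fold higher on both days. The 12 neural progenitor markers summed to 1306 CPM in induced and 1014 CPM in uninduced cells on day 5, and to 790 and 1087 CPM on day 11. NES made up most of the sum in induced cells, at 972 against 405 CPM on day 5 and 493 against 209 CPM on day 11. At the 4-fold bound 4 of the 7 progenitor markers at 10 CPM or more were lower on day 5. On day 11 it was 7 of 10, and none of those counted was higher on either day. Over all 12 the median log2 ratio was 0.47 on day 5, with a highest of 3.09 in a marker under 10 CPM, and -3.62 on day 11. SOX2 was at 34.7 CPM in induced cells, against 248.5 CPM in uninduced cells, on day 5, and at 17.5 against 306 CPM on day 11. POU5F1 was at 5.03 CPM in induced cells on day 5, against 654 CPM in uninduced cells, and NANOG at 0.121 against 35.5 CPM. The part of such cells in the levels of the mitosis genes was not tested.

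Among the cyclins and kinases, 8 of 9 genes passed the 4-fold bound on each day. Cyclin B1 was at 15.1 CPM in induced cells, against 241 CPM in uninduced cells, on day 5, and at 7.76 against 235 CPM on day 11. Induced cells thus held 6.27% of the uninduced level (interval 5.77 to 6.81%) and later 3.30% (2.91 to 3.74%). Cyclin B2 was among the 3 genes with the largest differences on day 11, at 1.42 CPM in induced and 171 CPM in uninduced cells, which is 0.832% (0.611 to 1.11%). CDC25B, a phosphatase that removes inhibitory phosphates from CDK1, was the exception of this role. It was at 22.8 CPM in induced cells, against 27.4 CPM in uninduced cells, on day 5, and at 26.2 against 29.2 CPM on day 11, log2 ratios of -0.25 and -0.15. Its relative CDC25C was at 1.28 against 22.1 CPM on day 5 and at 0.606 against 31.6 CPM on day 11. PLK4, the kinase that starts centriole duplication, was at 6.94 against 43.0 CPM on day 5 and at 6.64 against 48.3 CPM on day 11, the smallest difference among the 8 that passed on both days.

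Both transcription factors were lower. B-MYB (MYBL2) was at 7.61 CPM in induced cells, against 135 CPM in uninduced cells, on day 5, and at 2.45 against 115 CPM on day 11. FOXM1, which drives G2 genes, was at 3.82 against 64.8 CPM and then at 1.42 against 83.5 CPM.

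All 4 checkpoint genes and all 7 kinetochore, centromere and chromosomal passenger genes passed the bound on both days. BUB1B, the checkpoint protein that holds CDC20 back, was at 3.53 CPM in induced cells, against 161 CPM in uninduced cells, on day 5, and at 2.45 against 138 CPM on day 11. The checkpoint gene MAD2L1 was the least reduced of the 4, at 9.98 against 65.2 CPM and then 4.30 against 82.8 CPM. AURKB, the kinase of the chromosomal passenger complex, was at 2.63 against 118 CPM on day 5 and at 0.970 against 77.3 CPM on day 11. CENPA, which marks the centromere, was at 0.629 against 22.8 CPM and then 0.333 against 26.8 CPM. For AURKB induced cells held 2.24% of the uninduced level on day 5 (interval 1.83 to 2.71%) and 1.25% on day 11 (0.856 to 1.77%).

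The 5 spindle genes and the 4 genes of the APC/C and separase axis also all passed on both days. TPX2 was at 12.2 CPM in induced cells, against 214 CPM in uninduced cells, on day 5, and at 9.45 against 243 CPM on day 11. DLGAP5, which stabilises spindle fibres at kinetochores, showed the largest difference of the 41 genes on day 11, with 1.09 CPM in induced and 190.0 CPM in uninduced cells. That is 0.574% of the uninduced level (interval 0.402 to 0.796%), against 3.45% (2.98 to 3.98%) on day 5. UBE2C was at 4.16 against 187 CPM on day 5 and at 1.73 against 133 CPM on day 11, and CDC20 at 4.45 against 122 CPM and then 2.27 against 129 CPM.

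The chromosome and cytokinesis genes held the remaining exceptions. TOP2A was at 19.0 CPM in induced cells, against 407 CPM in uninduced cells, on day 5, and at 7.97 against 732 CPM on day 11. MKI67, which coats mitotic chromosomes and is the usual proliferation marker, was at 11.9 against 392 CPM and then 4.09 against 326 CPM. SMC2, a core ATPase of both condensins, behaved otherwise, at 27.2 against 47.5 CPM on day 5 and at 32.3 against 86.3 CPM on day 11, log2 ratios of -0.78 and -1.39. Its partner SMC4 was at 16.8 against 148 CPM and then 11.2 against 173 CPM, although 25.6% of the exon bases of SMC4 lie under TRIM59 on the opposite strand. In cytokinesis, ANLN was at 38.7 against 129 CPM on day 5, the highest level of any member in that induced library, and at 9.42 against 175 CPM on day 11. RACGAP1, part of the centralspindlin complex, was at 38.2 against 52.2 CPM on day 5 and at 19.8 against 88.4 CPM on day 11. PRC1, which bundles midzone microtubules, was at 18.8 against 87.4 CPM and then 19.0 against 93.6 CPM, with 58.4% of its exon bases under AC068831.7 on the same strand.

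Between the induced libraries themselves the program was lower still on day 11 than on day 5. The summed CPM was 247 on day 11, against 403 on day 5, and 38 of 41 genes were lower, with a median log2 ratio of -0.74 against -0.07 over all genes. In 35 genes the counting interval of the ratio lay below 1, and in 2 it lay above. These intervals cover counting error only, and the share of all genes by that rule was not computed. None passed the 4-fold bound, which 1.22% of 11465 genes passed downward and 0.741% upward, and 14 of the 41 reached the 10 CPM needed to be counted. ANLN came nearest on the scale with 1 CPM added, with 24.3% of its day-5 level on day 11 (interval 21.5 to 27.5%). SMC2 and CDC25B were the genes whose intervals lay above, at 119% (109 to 129%) and 115% (105 to 126%) of day 5.

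**Figure D2:**
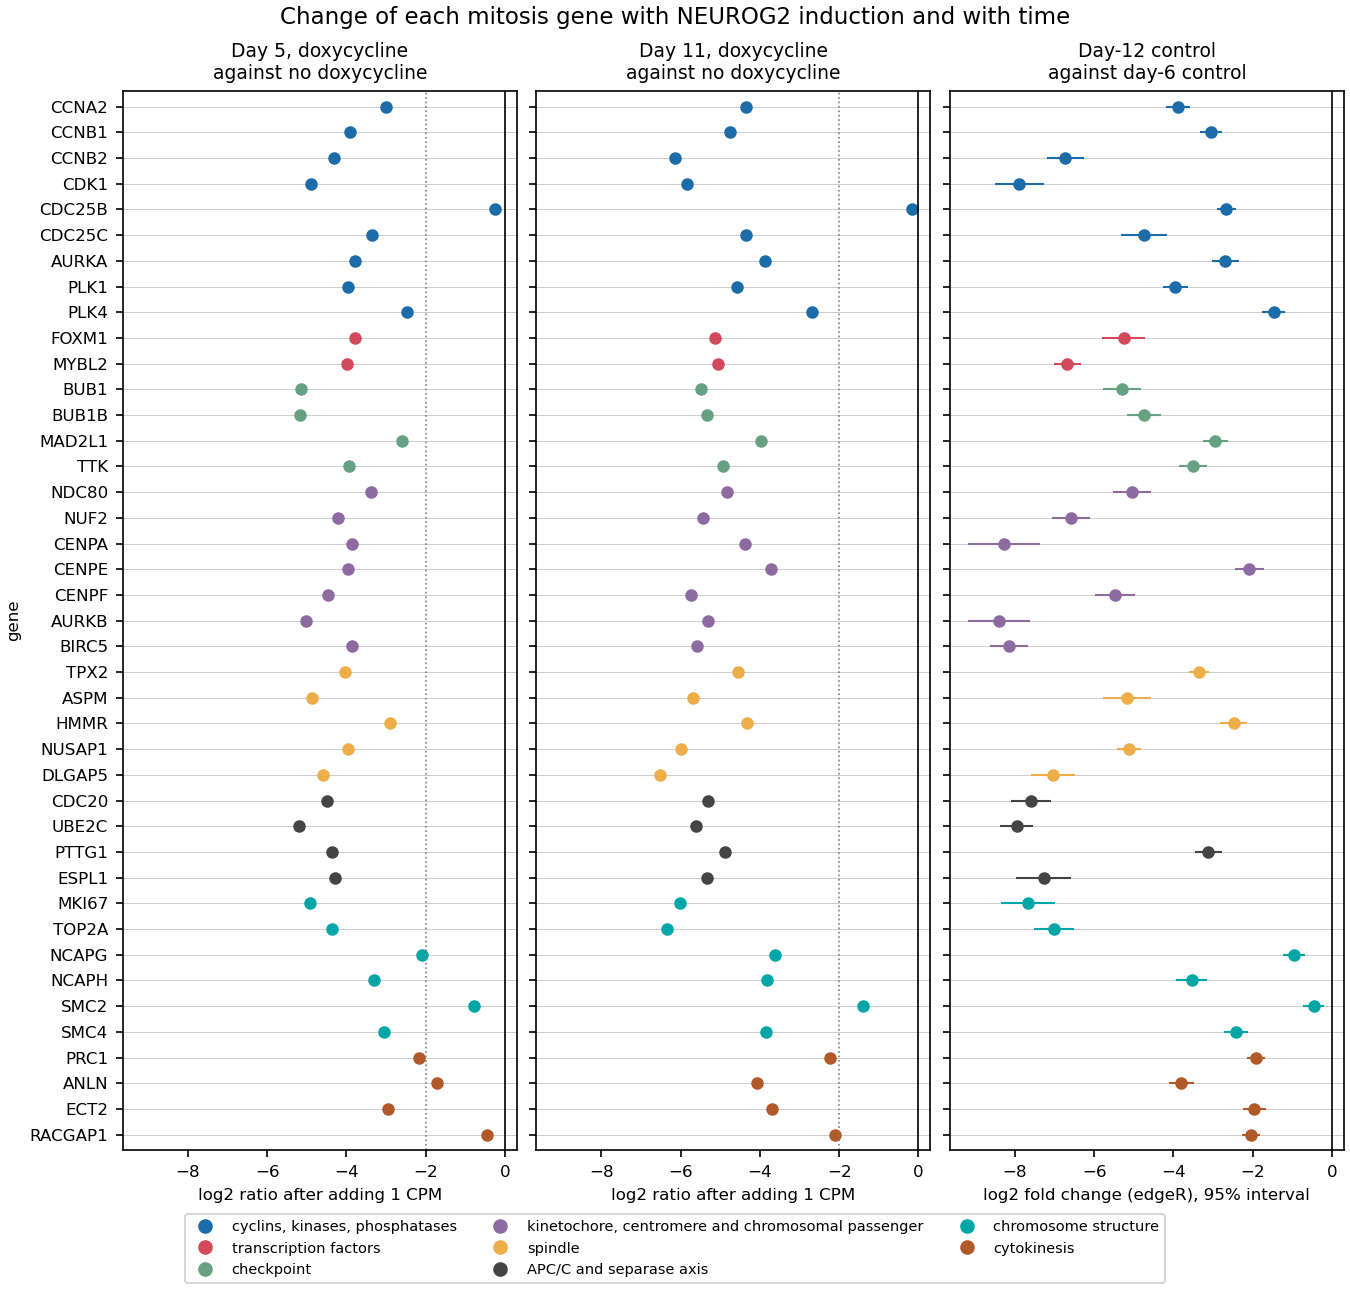
Change of each of the 41 genes (rows, coloured by role) in induced over uninduced cells on day 5 and on day 11 (log2 ratio after adding 1 CPM, 1 library per group, no error bar, dotted line at 4-fold lower) and in the day-12 over the day-6 control (log2 fold change with 95% interval from edgeR, 2 libraries per group). Every point lies left of 0, with CDC25B at -0.25 and -0.15 in the first 2 panels and SMC2 at -0.46 in the third. For genes of few counts on day 12 the edgeR intervals can be narrower than counting error alone gives.

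In the FGF2 set the mitosis genes were still expressed on day 6 and fell by day 12. The summed CPM of the 41 genes was 186 and 181 in the day-12 control libraries, against 1901 and 1650 in the day-6 control libraries. All 41 fell at an adjusted p under 0.05 in edgeR's quasi-likelihood test with Benjamini-Hochberg adjustment over 20142 genes, where 32.3% of all genes were called lower and 31.7% higher. Of the 41, 39 were called and at least 2-fold lower, against 14.6% of all genes at that bound. At least 16-fold lower were 21 of the 41, a bound at which all genes were not counted. The median log2 change was -4.74 over the members and -0.0045 over all genes. In every one of the 41 both day-12 control libraries lay below both day-6 control libraries, as did those of 42.5% of all genes. Day 12 also follows 6 days without doxycycline, so time and withdrawal cannot be told apart here. Over the same comparison 4 of the 10 pluripotency markers and all 12 of the progenitor and neuron markers were tested. Of the 4 pluripotency markers, 3 were called lower and 1 higher. The neuron markers summed to 22941 and 23119 CPM on day 12, against 11905 and 12386 CPM on day 6, with 8 of 12 called higher and 2 lower. The progenitor markers summed to 936 and 996 CPM, against 1808 and 1787 CPM, with 9 of 12 called lower and 2 higher. Their part in the fall of the mitosis genes was not tested.

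By role, the median log2 change was -7.43 in the APC/C and separase axis, -6.59 in the kinetochore, centromere and passenger genes, -5.96 in the transcription factors and -5.12 in the spindle genes. It was -4.12 in the checkpoint genes, -3.89 in the cyclins and kinases, -2.98 in the chromosome genes and -1.998 in the cytokinesis genes. The 3 largest single changes were in the chromosomal passenger complex and the centromere. AURKB was at 0.0811 and 0.0427 CPM in the day-12 control libraries, against 25.6 and 19.8 CPM in the day-6 control libraries. That is 3 counts over the group on day 12 against 1056 on day 6, or 364-fold lower by counts (interval 124 to 1765), with an adjusted p of 2.22e-11 in edgeR's test. BIRC5 (survivin), another subunit of that complex, was at 0.162 and 0.213 CPM on day 12, against 59.0 and 50.6 CPM on day 6, a log2 change of -8.16 ± 0.22 (SE, n = 2 libraries per group, edgeR adjusted p = 1.26e-13). BIRC5 had 9 counts on day 12 against 2554 on day 6, or 293-fold lower by counts (interval 154 to 642). That counting interval is wider than edgeR's, which ran from -8.64 to -7.68 on the log2 scale. CENPA had 1 count on day 12 against 368 on day 6, which is 380-fold lower with an interval of 67.8 to 15050. The fitted log2 changes of AURKB and CENPA, -8.40 and -8.27, depend on the prior count of the fit at such low counts. In the same role CENPE, a kinesin that moves chromosomes to the spindle equator, fell least, at 7.50 and 8.62 CPM on day 12 against 36.6 and 31.7 CPM on day 6.

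In the APC/C and separase axis, UBE2C was at 0.203 and 0.171 CPM in the day-12 control libraries, against 50.8 and 44.4 CPM in the day-6 control libraries, a log2 change of -7.95 ± 0.20 (SE, n = 2 per group, edgeR adjusted p = 4.33e-14). MYBL2 was at 0.527 and 0.726 CPM, against 68.0 and 60.8 CPM, a log2 change of -6.68 ± 0.16 (SE, n = 2 per group, edgeR adjusted p = 4.01e-14). The groups of both genes were far apart, with the replicates of a day close together. By counts UBE2C was 254-fold lower (interval 134 to 557) and MYBL2 103-fold lower (72.2 to 153). These counting intervals are wider than those of edgeR. Securin (PTTG1), the inhibitor of separase, kept more, at 3.16 and 3.84 CPM on day 12 against 33.0 and 27.8 CPM on day 6.

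Among the kinases, cyclins and checkpoint genes the falls spread widely. CCNB2 was at 0.324 and 0.256 CPM in the day-12 control libraries, against 33.3 and 29.3 CPM in the day-6 control libraries. CDK1 was at 0.0811 and 0.256 CPM, against 43.5 and 37.6 CPM. Cyclin B1 kept more than CCNB2 and CDK1, at 7.14 and 7.81 CPM, against 66.2 and 57.5 CPM, a log2 change of -3.05 ± 0.13 (SE, n = 2 per group, edgeR adjusted p = 1.1e-11). CDC25B, which had differed little between induced and uninduced cells, was at 14.7 and 15.0 CPM on day 12, against 98.7 and 89.0 CPM on day 6, a log2 change of -2.66 ± 0.11 (SE, n = 2 per group, edgeR adjusted p = 8.57e-12). PLK4 fell least in this role, at 6.77 and 6.19 CPM, against 18.9 and 17.2 CPM, a log2 change of -1.47 ± 0.14 (SE, n = 2 per group, edgeR adjusted p = 1.77e-07). BUB1B was at 0.649 and 1.15 CPM on day 12, against 25.3 and 22.96 CPM on day 6.

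The log2 changes of the spindle, chromosome and cytokinesis genes ran from -7.68 (MKI67) to -0.46 (SMC2), the smallest fall of the 41. DLGAP5 was at 0.324 and 0.0854 CPM in the day-12 control libraries, against 29.1 and 26.4 CPM in the day-6 control libraries, and TPX2 at 6.65 and 6.83 CPM, against 75.7 and 62.2 CPM. TOP2A was at 0.851 and 1.62 CPM, against 172 and 146 CPM, a log2 change of -7.01 ± 0.24 (SE, n = 2 per group, edgeR adjusted p = 1.01e-12). Of the 4 condensin genes, NCAPG and SMC2 kept the most, while SMC4 was at 18.7% and NCAPH at 8.57% of the day-6 level. NCAPG was at 18.9 and 16.05 CPM on day 12, against 36.1 and 31.6 CPM on day 6, a log2 change of -0.95 ± 0.13 (SE, n = 2 per group, edgeR adjusted p = 1.03e-05). SMC2 was at 32.4 and 27.4 CPM, against 41.4 and 40.6 CPM, a log2 change of -0.46 ± 0.12 (SE, n = 2 per group, edgeR adjusted p = 0.00463). That call was lost without day-12 control replicate 2, when the log2 change was -0.34 (adjusted p = 0.0768). ANLN was at 3.97 and 3.12 CPM on day 12, against 51.1 and 47.8 CPM on day 6, and RACGAP1 at 16.1 and 16.3 CPM, against 68.4 and 64.8 CPM.

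The genes at or above a fixed level overlapped between the sets. With a bound of 5 CPM, chosen after the values were seen, 11 members remained at or above it in both day-12 control libraries and 15 in induced cells on day 11. All 11 of the first list were among the 15 of the second: CCNB1, CDC25B, PLK4, CENPE, TPX2, NCAPG, SMC2, SMC4, PRC1, ECT2 and RACGAP1. The other 4 of the second list were CCNA2, CENPF, TOP2A and ANLN. A fixed bound takes no account of the starting level or of exon length. TOP2A passed it on day 11 at 7.97 CPM in induced cells, against 732 CPM in uninduced cells. AURKA and HMMR, not on the first list, had 15.4% and 17.9% of their day-6 control level in the day-12 control. TPX2 and CCNB1, which are on it, had 9.77% and 12.1%. Levels in the sets come from separate runs, and the overlap was not tested.

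Other cell cycle genes gave the surroundings of the fall between the day-6 and day-12 controls. In that comparison 32.3% of all genes fell and 31.7% rose, the shares to set beside each list below. Of 68 further mitosis genes, 57 fell and 5 rose between the day-6 and the day-12 control, with a median log2 change of -2.50. The kinesins KIF2C and KIF20A had the smallest p-values, with log2 changes of -6.22 and -6.46 (edgeR adjusted p = 4.39e-13 and 1.22e-12). The 5 that rose were CDC25A, the microtubule polymerase CKAP5, the cohesin subunits SMC3 and SMC1A, and the centriole gene CENPJ, by 0.27 to 0.62 on the log2 scale. Of 34 genes of S phase and replication, 30 fell and 2 rose, with a median of -1.51. RRM2, a subunit of ribonucleotide reductase, fell by 8.27 and the thymidylate synthase gene TYMS by 4.71 on the log2 scale (edgeR adjusted p = 5.26e-13 and 2.01e-11), while CDC7 rose by 0.91 and LIG1 by 0.65. Of the 17 genes of the APC/C core and its adaptor, 9 fell and 1 rose, with a median of -0.25. The riser was the adaptor FZR1 (CDH1), which keeps the APC/C active after mitosis, at 84.2 and 81.7 CPM on day 12 against 42.3 and 45.1 CPM on day 6, a log2 change of 0.92 (edgeR adjusted p = 1.13e-07). FBXO5, an inhibitor of the APC/C, fell by 1.44 (edgeR adjusted p = 1.42e-07).

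Of 20 genes of the DREAM, RB and E2F group, 11 fell and 3 rose, with a median log2 change of -0.34. E2F1 fell by 4.76 and TFDP2 by 2.47 on the log2 scale (edgeR adjusted p = 5.46e-12 and 7.81e-12), and MYB, LIN54 and LIN52 rose by 0.36 to 1.48. Of 7 inhibitors of cyclin-dependent kinases, 6 could be tested, and 3 fell and 2 rose, where 32.3% of all genes fell and 31.7% rose. CDKN1C and CDKN2C fell by 1.78 and 4.61 (edgeR adjusted p = 4.84e-11 and 2.1e-10). CDKN2D rose by 1.18 and CDKN2B by 1.59 (edgeR adjusted p = 2.49e-08 and 6.16e-05). In the doxycycline set, 45 of the 68 further mitosis genes were at least 4-fold lower in induced cells on day 5 and 51 on day 11, and none was higher. Of the 34 S phase genes, 31 and 33 reached the 10 CPM needed to be counted on days 5 and 11, and 18 and 24 were lower. Of the 17 APC/C core genes, 15 and 14 were counted, and 0 and 1 were lower. ANAPC13 was higher on day 5, at 139 against 24.2 CPM. Of the 20 DREAM, RB and E2F genes, 16 and 17 were counted, and 1 and 4 were lower. Of all genes counted, 11.5% were lower on day 5 and 9.85% on day 11. RB1 was higher on day 5, at 119.6 against 19.9 CPM. Of the 7 CDK inhibitors, 4 were counted on each day. On day 5, 2 were at least 4-fold higher and 1 lower, and on day 11, 1 was higher and none lower. Of all genes counted, 12.6% were higher on day 5 and 11.5% on day 11. CDKN1A (p21) was the lower gene on day 5, at 16.7 CPM in induced cells, against 173 CPM in uninduced cells, and CDKN1C (p57) was higher, at 196 against 31.2 CPM. Against day 0, none of the 7 was at least 4-fold lower in induced cells on day 5, and 2 were higher. Without doxycycline the 7 summed to 96.6 CPM on day 0, 245 CPM on day 5 and 99.8 CPM on day 11. CDKN2D was at 88.6 CPM in induced cells, against 2.03 CPM in uninduced cells, on day 5, and at 150.5 against 3.25 CPM on day 11.

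No mitosis gene was called with late FGF2. The summed CPM of the 41 genes was 183 and 177 with late FGF2, against 186 and 181 in the day-12 controls. None of the 41 was called by edgeR's quasi-likelihood test, where 437 of 20142 genes (2.17%) were, 329 higher (1.63%) and 108 lower (0.536%). The smallest adjusted p among them was 0.300, and 3 members had an unadjusted p under 0.05 in that test, against 2151 of all genes. The median log2 change was 0.00061 over the members and 0 over all genes, with 21 members higher and 20 lower. In 22 members the 95% interval of the change lay wholly within 2-fold either way, and the others include the genes with the fewest counts, where larger changes would not have been detectable at this depth. DESeq2 and limma voom on the same counts also called no member. In the authors' deposited tables no member had an adjusted p under 0.05 with late FGF2 by limma, where 1306 genes did. The authors' deposited tables give a DESeq2 adjusted p for only 11 of the 41 members with late FGF2, none under 0.05, where 834 genes were, and the other 30 members have none. The smallest for a member in the authors' deposited tables was 0.158, for NCAPG by limma. The neuron markers summed to 26151 and 26967 CPM with late FGF2, against 22941 and 23119 CPM in the day-12 controls, and their part was not tested.

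The 3 members of smallest p with late FGF2 moved in both directions. CENPA had 3 and 6 counts in the late FGF2 libraries, against 1 and 0 counts in the day-12 controls, a ratio of 7.59 with a counting interval of 1.05 to 333 (edgeR adjusted p = 0.300). The checkpoint kinase TTK (MPS1) was at 0.936 and 0.956 CPM with late FGF2, against 1.46 and 1.45 CPM in the controls, a log2 change of -0.62 ± 0.24 (SE, n = 2 per group, edgeR adjusted p = 0.326). NUSAP1 was at 0.899 and 1.05 CPM, against 1.34 and 1.66 CPM, a log2 change of -0.61 ± 0.24 (SE, n = 2 per group, edgeR adjusted p = 0.337). In each of these genes the groups did not overlap, and none passed the adjustment. Over all 41, 4 members had both late FGF2 libraries below both controls, as had 22.9% of all genes, and 8 had both above, as had 23.5% of all genes.

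Early FGF2, given during induction, gave no call on a mitosis gene either. The summed CPM of the 41 genes was 1733 and 1481 with early FGF2, against 1901 and 1650 in the day-6 controls. None of the 41 was called by edgeR, and neither was any other gene (0 of 20142, 0%; 658 genes and 3 members had an unadjusted p under 0.05, and DESeq2 and limma voom called 0 as well). The median log2 change was -0.14 over the members and 0.01 over all genes, 34 of 41 were lower, and the range was -0.38 to 0.12. In all 41 the 95% interval lay within 2-fold. The condensin genes NCAPG and SMC2 and the kinesin CENPE had the smallest p. NCAPG was at 30.6 and 24.3 CPM with early FGF2, against 36.1 and 31.6 CPM in the controls, a log2 change of -0.30 ± 0.12 (SE, n = 2 per group, edgeR adjusted p = 0.927). SMC2 was at 38.3 and 29.4 CPM, against 41.4 and 40.6 CPM, and CENPE at 32.6 and 22.0 CPM, against 36.6 and 31.7 CPM. In all 3 the second early FGF2 library was the lowest of the 4.

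Set against the mean of the day-6 controls, that library also shifted with gene length and the first did not. Over all 12143 genes its log2 ratio to the controls had a median of 0.19 below the lower quartile of exon length and -0.17 above the upper, and replicate 1 had medians of -0.0032 and 0.015. Over the 10 longest members the median was -0.46 in replicate 2 and -0.02 in replicate 1. The part of length in the members' lower values was not tested. Among the 41 genes the log2 ratio of replicate 2 to replicate 1 with early FGF2 had a Spearman correlation with exon length of -0.67 across genes, which are not independent replicates and share their libraries, and the same correlation was -0.19 in the day-6 controls. Its median was -0.07 over the 10 genes with the shortest exon sequence (2.88 kb or less) and -0.47 over the 10 with the longest (6.01 kb or more), against -0.18 and -0.20 in the controls. MKI67 was at 99.4 and 63.2 CPM with early FGF2, against 109.8 and 88.1 CPM in the controls, and BIRC5, with less exon sequence (3.81 kb, against 12.8 kb in MKI67), at 57.7 and 57.7 CPM, against 59.0 and 50.6 CPM. Without replicate 2 of early FGF2 the members' median log2 change was -0.04 and none was called. Without replicate 1 the members' median was -0.19, against 0.01 over all genes, and 36 of 41 were lower. In that fit CENPE, CENPF, ASPM, MKI67, TOP2A, NCAPG, SMC2, SMC4 and ECT2 were lower by 0.43 to 0.82 on the log2 scale. The lone FGF2 library is then assumed to vary like the other groups. Calls that rest on it are not read as results about the mitosis genes. Without replicate 1 of the day-6 control the median was -0.02, without replicate 2 of that control it was -0.23 with 38 of 41 lower, and none was called in either case.

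The late effect minus the early effect was called in none of the 41 genes, against 147 of 20142 genes (0.73%) by edgeR, and 2 members had an unadjusted p under 0.05. The smallest adjusted p among the members was 0.571, for CENPA, and the next were BUB1B and HMMR, with log2 differences of 0.75 ± 0.32 and 0.49 ± 0.23 (SE, n = 2 per group, edgeR adjusted p = 0.623 and 0.685). Without replicate 1 of early FGF2, the log2 differences of CENPE, CENPF and ASPM were 0.73, 0.94 and 1.19. That fit again has a lone early FGF2 library, so its calls are not read as results about these genes. None of the genes in the lists of other mitosis, S phase, APC/C, DREAM and CDK inhibitor genes was called with early or late FGF2 or in their difference.

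**Figure D3:**
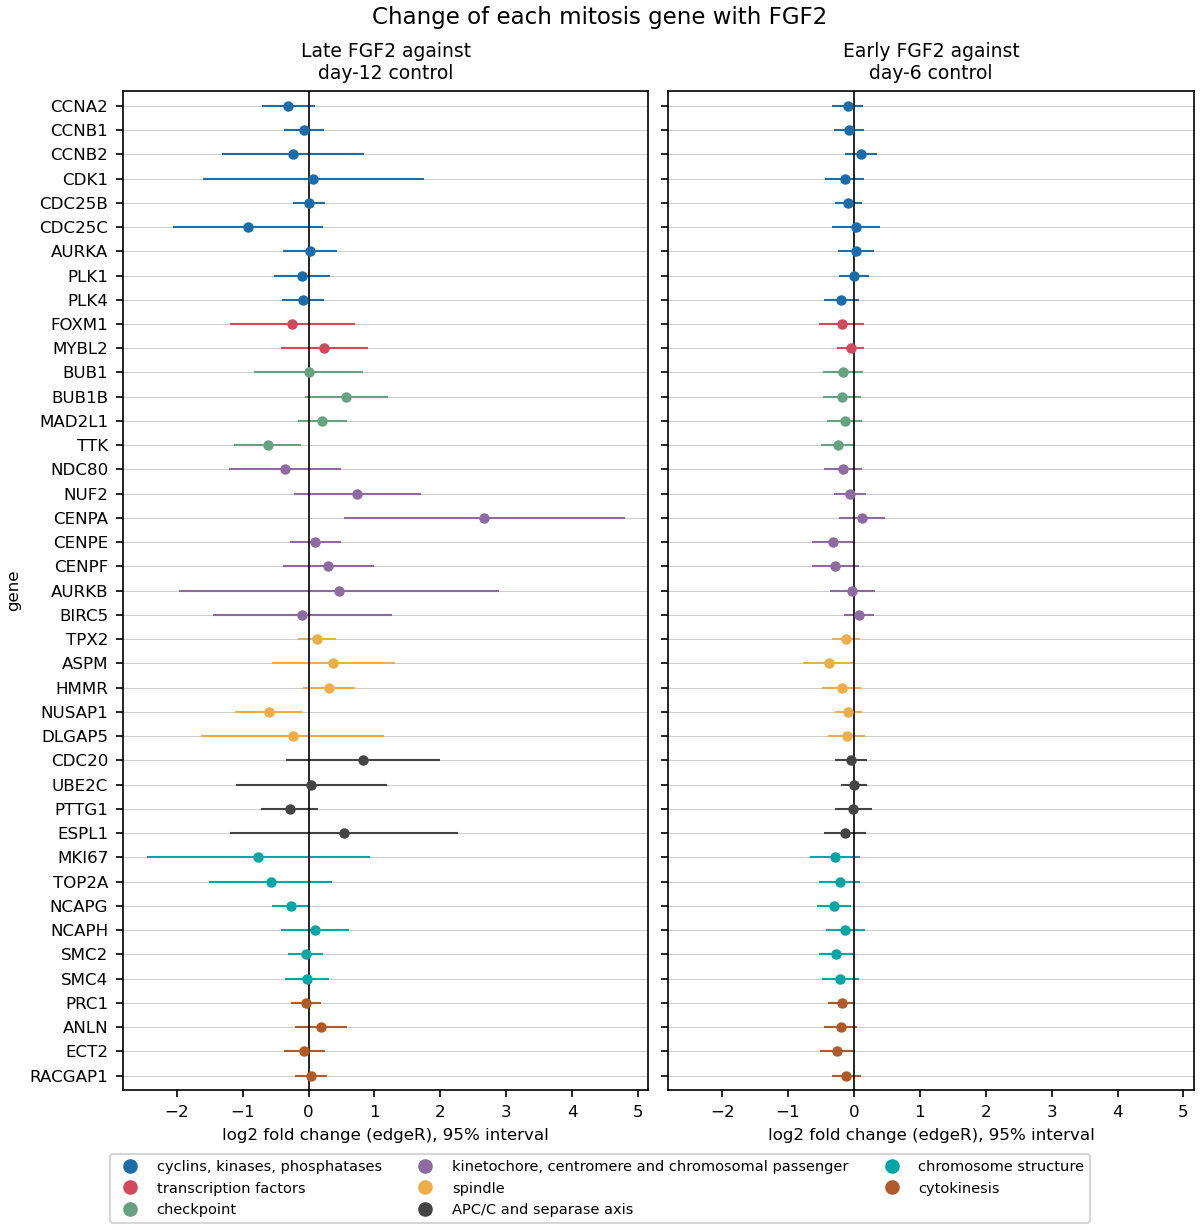
Log2 fold change with 95% interval from edgeR for each of the 41 genes (rows, coloured by role) with late FGF2 over the day-12 control and with early FGF2 over the day-6 control, 2 libraries per group. Late changes scatter on both sides of 0 with wide intervals for genes of few counts, such as CENPA at 2.67, while early changes lie between -0.38 and 0.12.

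**Figure D4:**
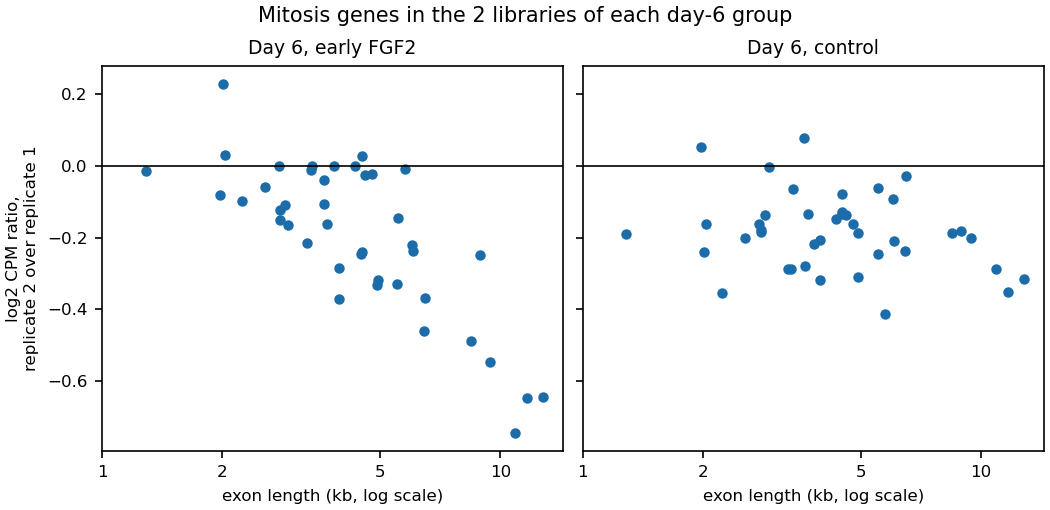
Log2 ratio of replicate 2 to replicate 1 (TMM-scaled CPM, 1 CPM added) for the 41 genes against their exon length on a log axis, in the early FGF2 group and in the day-6 control group. With early FGF2 the ratio falls with length, from a median of -0.07 over the 10 shortest genes to -0.47 over the 10 longest, and the same medians are -0.18 and -0.20 in the control group.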

How the data were processed

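Polyadenylated RNA was sequenced on a HiSeq instrument with 50-cycle single-end reads, per the labels' protocols. The submitters' processing notes name Subread, featureCounts 1.5.0 and the build GRCh38 for the gene counts, and strand settings are not given in the sources used here. The authors deposited raw counts for both sets, which were used as deposited. They also deposited a normalized signal table for the doxycycline set, used here only as an alternative. In it each value of a gene with at least 50 counts is the count times 1 of 6 factors (0.839 to 1.194) that change from gene to gene, and all 41 members carry more than 1 factor. The authors also deposited log2 fold changes and p-values from DESeq2 and limma for the FGF2 set, and 16 per-sample columns in those tables were not used.

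Libraries were scaled by TMM. For the FGF2 set, edgeR 4.0.16 (R 4.3.3) took all 8 libraries in a single fit (filterByExpr, quasi-likelihood, 1 mean per group, two-sided tests, Benjamini-Hochberg over 20142 genes, call at an adjusted p under 0.05). Levels are TMM-scaled CPM. Errors marked SE are the size of the log2 change divided by the square root of the test's F statistic. The 95% intervals of edgeR were built from them. For genes of few counts both can be narrower than counting error alone gives. The doxycycline set, with 1 library per group, has no test: log2 ratios were taken after adding 1 CPM to both values, a gene counted as different at 4-fold with at least 10 CPM in either library, and 95% exact binomial intervals cover counting error only. Lengths and overlaps came from GENCODE 29 and promoters from RefSeq.

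The members and the gene lists were chosen with earlier results of these data known. All 41 members may be named; values per library are given for the highest of each role on day 0, the 3 largest and 3 smallest differences between the controls of days 12 and 6 and between induced and uninduced cells on day 11, and the 3 smallest p with FGF2. From other lists the 2 smallest p and any gene called against the majority are named. A few further members are given as contrasts, chosen after their values were seen. The fit has no replicate block. Alternatives were other scalings (library totals, RLE), no filter, DESeq2 1.42.0, limma 3.58.1 voom, a replicate block, a 2-fold bound, fits of 4 libraries, and leaving out each library.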

Additional observations from a re-analysis of the deposited data

How the results depend on the processing

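The fall of all 41 genes between the day-6 and day-12 control held under every alternative run except the removal of day-12 control replicate 2 (40 of 41, SMC2 lost) and a further 2-fold bound (39 of 41). No alternative changed the sign of a called value. Scaling by library totals moved the median log2 ratio of all genes from 0.16 to -0.18 and that of the members from -4.84 to -5.11 on day 11, and turned the split over all genes there from 1457 higher and 1247 lower into 1203 higher and 1625 lower, while 39 members stayed at least 4-fold lower. Between uninduced cells it turned 100 higher and 25 lower on day 5 against day 0 into 80 and 38, and 285 higher and 566 lower on day 11 against day 5 into 389 and 454. At a 2-fold bound the doxycycline set gave 6467 genes on day 5, 5796 on day 11, 909 between the induced days, 1186 for uninduced day 5 against day 0 and 2844 for day 11 against day 5, with 4 members lower between the induced days and 2 higher in the last. Adding 0.25 CPM in place of 1 gave 1 member 4-fold lower between the induced days. Genes called with late FGF2 numbered 656 with no filter, 144 with the 2-fold bound, 1338 in a fit of the 4 libraries alone and 184 to 1188 when a library was left out. For the difference of the effects the numbers were 268 with no filter, 78 with the 2-fold bound and 78 to 1345 when a library was left out, with 0 to 3 members higher. For early FGF2, leaving out a library gave 0 to 2523 genes and 0 to 9 members lower, and for the day-12 against the day-6 control the 2-fold bound left 6431 genes. The cause of these shifts was not tested.

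Same-numbered libraries deviated from their group means with correlations of 0.0042 to 0.098 over 6 pairs of groups, under the 0.1 needed here to treat the numbers as pairs. Among the members on day 6, however, replicate 2 was lower than replicate 1 in 34 of 41 genes with FGF2 and in 39 of 41 in the controls. With the replicate block edgeR called 598 genes for late FGF2, 0 for early FGF2, 206 for late minus early, and 13200 between the controls, and no call on a member changed, with 8 members at an unadjusted p under 0.05 for early FGF2, against 3 without the block. Depth limits the day-12 libraries most, where 9 members had 10 counts or fewer over both controls.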
